A study of Mus musculus with 6 samples.

Results

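Fat is released from adipocytes by a chain of lipases that is switched on by cyclic AMP, and the genes described here are 10 genes of that chain. They are the triglyceride, diglyceride and monoglyceride lipases Pnpla2, Lipe and Mgll, the carboxylesterase Ces1d, the lipase activator Abhd5, the adenylyl cyclases Adcy3 and Adcy6, and the subunits Prkar2b, Prkar1a and Prkaca of protein kinase A (PKA). They were taken by gene symbol from a table of 40428 features, and each of the 10 symbols matched 1 line. All 10 passed the filter on low counts, in both groups, among 19272 genes tested.

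The libraries came from total RNA of the subcutaneous white fat depot of 6 mice of the strain C57BL/6J, fed regular chow and housed at room temperature. The 3 control mice were flox/flox for Nampt, the gene of the NAD salvage enzyme nicotinamide phosphoribosyltransferase. The 3 ANKO mice came from a cross of Nampt flox mice with mice carrying Cre under the adiponectin promoter, which directs the deletion to adipocytes while the other cells of the depot keep the gene. The age of the mice, and whether the controls carried Cre, are not given in the labels. The libraries held 19748962 to 23860596 counts. Nampt itself, the check of the deletion, stood at 83.6, 93.0 and 87.0 CPM (counts scaled to the effective library size) in the controls and 48.6, 50.2 and 47.0 CPM in ANKO, and every ANKO library lay below every control (log2 fold change -0.85, edgeR adjusted p = 0.00416). The adipocyte markers, all 10 of 10 detected, summed to 1.57%, 2.02% and 2.23% of counts in controls 1, 2 and 3 and to 0.620%, 0.728% and 0.706% in ANKO 1, 2 and 3. In controls Cfd and Car3 had the highest means, 6970 and 6515 CPM, and in ANKO these were 1148 and 2170 CPM. Of the 10, 5 fell at an edgeR adjusted p under 0.05, against 1.1% of all genes tested. Log2 fold changes ran from -2.60 for Cfd to 0.15 for Slc2a4, and Pparg and Cebpa stood at 0.703 and 0.652 of control. Skeletal muscle markers, 16 of 16 detected, varied from 0.157% to 0.975% in controls and from 0.0106% to 1.87% in ANKO. In whole tissue, fewer adipocytes and less RNA of a gene per adipocyte cannot be told apart.

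In an adipocyte at rest, triglyceride is shielded in a droplet coated by perilipin 1, which also holds the activator CGI-58 (Abhd5). Catecholamines acting on beta-adrenergic receptors raise cyclic AMP through the stimulatory G protein and adenylyl cyclase. Cyclic AMP binds the regulatory subunits of PKA and frees the catalytic subunits, which phosphorylate perilipin 1 and hormone-sensitive lipase, and CGI-58 is then free to activate adipose triglyceride lipase. Insulin opposes this through phosphodiesterase 3B, and receptors coupled to the inhibitory G proteins oppose it at the cyclase.

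All 10 genes had a lower fitted level in ANKO, from a log2 fold change of -1.23 for Prkar2b to -0.03 for Prkar1a, with a median of -0.52 against 0.00 over all genes tested. Prkar2b, the type II-beta regulatory subunit that predominates in white fat, was the 1 member of 10 that fell at an edgeR adjusted p under 0.05. Over all genes 1.1% were called lower and 0.488% higher by the same rule, and no member was called higher in edgeR, DESeq2 or limma-voom. At an unadjusted p under 0.05, 6 of 10 members were lower and none higher, where 6.9% and 6.03% of all genes were. The members were chosen with earlier results of these data known, and most of them varied together over the libraries. Counts of members beside these shares are therefore no test of the set. The 3 ANKO values lay below all 3 control values for 4 members (Prkar2b, Ces1d, Lipe and Adcy6), against 10.2% of genes tested, and above them for none, against 9.19%. DESeq2 called 3 members lower, Prkar2b, Ces1d and Lipe, where it called 2.58% of all genes lower and 2.01% higher. In simulated data, drawn with dispersions that edgeR estimated from these libraries, DESeq2 called more unchanged genes than its threshold allows. Prkar2b alone was called by limma-voom (0.851% of all genes lower) and with the replicate number as a block (0.752%), and no member with the skeletal muscle markers as a covariate (0.586%).

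**Figure D1:**
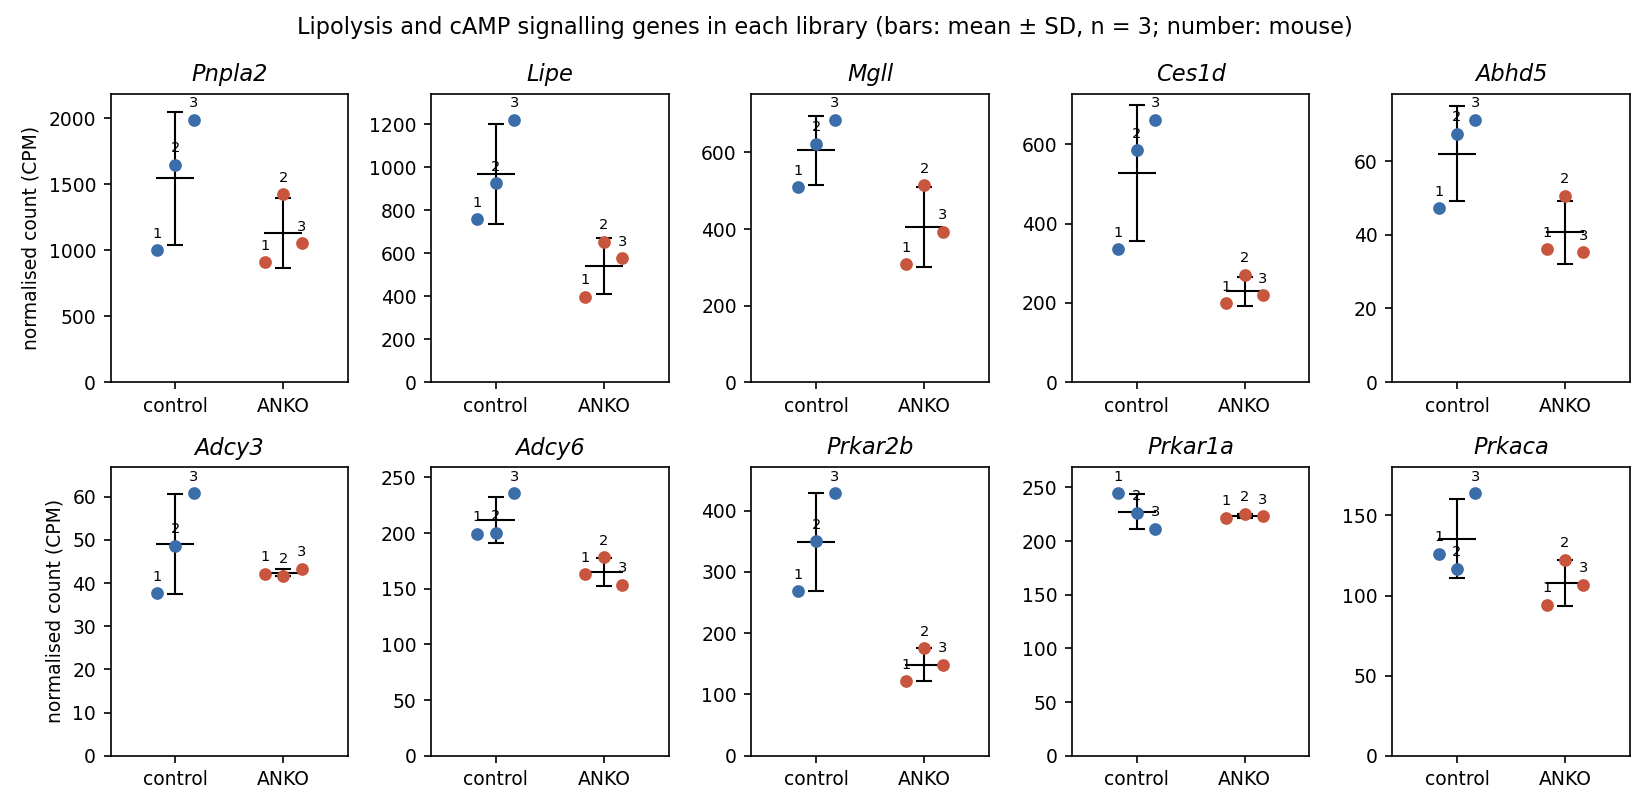
Normalised count (CPM, linear axis from 0) of each of the 10 genes in every library, with controls in blue and ANKO in red, the mean as a horizontal line and the SD as a bar (n = 3), and the mouse number beside each point. For Prkar2b the ANKO points sit between 122 and 176 CPM, below all controls, while for Prkar1a the groups overlap near 225 CPM.

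The lipases were read first, in the order in which they act. Pnpla2 (ENSMUSG00000025509, chromosome 7, 141455198 to 141460743, plus strand) encodes adipose triglyceride lipase (ATGL), which removes the first fatty acid from a triglyceride. Its level was 999.5, 1647 and 1988 CPM in controls 1, 2 and 3 and 909, 1424 and 1051 CPM in ANKO 1, 2 and 3. The groups overlapped, because control 1 lay below ANKO 2 and ANKO 3. The log2 fold change was -0.45 (SE 0.277, 95% interval from 0.464 to 1.15 of the control level) with an edgeR adjusted p = 0.580. The control libraries varied by an SD of 32.5% of their mean.

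Lipe (ENSMUSG00000003123, chromosome 7, 25379527 to 25398710, minus strand) encodes hormone-sensitive lipase, the diglyceride lipase that PKA phosphorylates. Its level was 759, 926 and 1221 CPM in controls and 396.5, 652 and 576 CPM in ANKO, with every ANKO library below every control. The fitted level in ANKO was 0.559 of control (log2 fold change -0.84, SE 0.232), with an edgeR adjusted p = 0.164 and a DESeq2 adjusted p = 0.00863. An antisense gene on the opposite strand, 4732471J01Rik, shares 15.6% of the exon bases of Lipe, and since the strand setting of the counting is not given, a part of those reads could belong to either gene. It had a mean of 69.0 counts per library, against 9436 counts in the library with the fewest for Lipe.

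Mgll (ENSMUSG00000033174, chromosome 6, 88724412 to 88828360, plus strand) encodes monoacylglycerol lipase, which releases the last fatty acid and glycerol. It was at 509, 623 and 685.5 CPM in controls and 308, 515 and 393 CPM in ANKO. The groups overlapped through control 1, which lay just below ANKO 2. The log2 fold change was -0.58 (SE 0.197, edgeR adjusted p = 0.252).

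Ces1d (ENSMUSG00000056973, chromosome 8, 93166068 to 93197838, minus strand) encodes a carboxylesterase that can hydrolyse triglyceride. Its level was 335, 586 and 662 CPM in controls and 199, 271 and 220 CPM in ANKO, which lay below all controls. The fitted fold change, -1.20 on the log2 scale (SE 0.260, 0.435 of control), was close in size to that of Prkar2b, and the edgeR adjusted p was 0.0978. Control 1 was the lowest control, at 0.635 of the control mean, and without it Ces1d was called (log2 fold change -1.44, edgeR adjusted p = 0.0108). The nearby gene Ces1f (chromosome 8, 93256236 to 93279747, minus strand) is a close paralog. Ces1f fell from 70.9, 110 and 145 CPM to 19.0, 24.6 and 30.5 CPM (log2 fold change -2.14, SE 0.308, edgeR adjusted p = 0.0381). Reads that match more than 1 carboxylesterase may have been split or dropped in counting, so the values of both genes are uncertain to that extent. Ces1f kept its call when control 1 was removed and lost it when any other library was (highest edgeR adjusted p = 0.172), with no low-count filter or with the muscle covariate.

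Abhd5 (ENSMUSG00000032540, chromosome 9, 122351608 to 122381524, plus strand) encodes CGI-58, the activator that ATGL needs for full activity. It was at 47.2, 67.4 and 71.2 CPM in controls and at 36.0, 50.6 and 35.3 CPM in ANKO, and only ANKO 2 reached into the control range. The log2 fold change was -0.61 (SE 0.198, edgeR adjusted p = 0.239). The antisense gene A730085K08Rik shares 15.9% of its exon bases and had a mean of 41.2 counts per library, against 760 to 1382 counts for Abhd5.

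**Figure D2:**
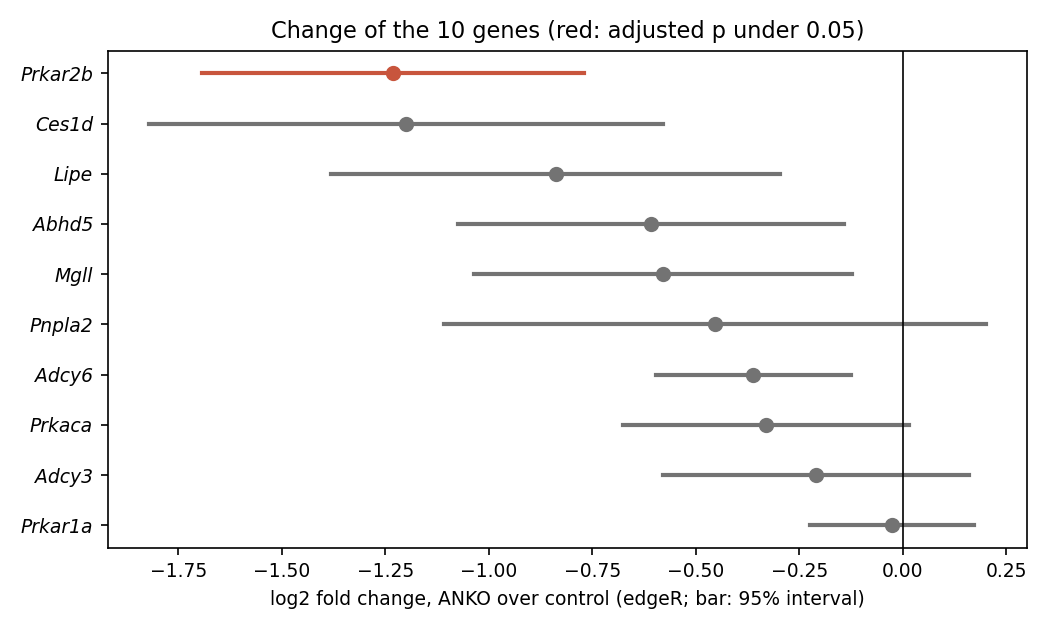
Log2 fold change of ANKO over control for each gene (horizontal axis, edgeR) with its 95% interval as a bar, ordered by size, and red for an adjusted p under 0.05. Only the bar of Prkar2b is red, and the bars of Pnpla2, Prkaca, Adcy3 and Prkar1a cross 0.

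Levels of different genes were compared only per length, as CPM per kilobase of exon. In controls Pnpla2 was the most abundant transcript of the 10 at 512 ± 166 CPM per kb (SD, n = 3), and no control value of the next gene, Ces1d (223 ± 72.3 CPM per kb), reached it. Ces1d, Lipe (165 ± 39.7 CPM per kb) and Mgll (119 ± 17.6 CPM per kb) followed, and each overlapped its neighbour in the order. Prkar2b stood at 95.6 ± 21.9 CPM per kb, overlapping Mgll, and Prkaca (54.5 ± 10.01 CPM per kb) and Prkar1a (52.6 ± 3.83 CPM per kb) overlapped each other. The cyclase Adcy6 came next at 31.2 ± 3.06 CPM per kb, and Abhd5 (10.4 ± 2.17 CPM per kb) and Adcy3 (7.85 ± 1.85 CPM per kb) were the lowest and overlapped. In ANKO the ranks of the 3 PKA genes differed from those in controls. Prkar1a stood at rank 5 (51.7 ± 0.432 CPM per kb), Prkaca at rank 6 (43.3 ± 5.70 CPM per kb) and Prkar2b at rank 7 (40.7 ± 7.35 CPM per kb). Prkar1a did not overlap Prkaca there, and Prkaca and Prkar2b overlapped. The other 7 genes kept their ranks.

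Within the lipase chain the make-up of the transcripts was compared as ratios per length inside each library, which do not depend on the scaling between libraries. Lipe over Pnpla2 was 0.390, 0.288 and 0.315 in controls and 0.224, 0.235 and 0.281 in ANKO. All ANKO ratios lay below all control ratios, and the exact two-sided permutation p was 0.1, the smallest that 3 against 3 can give (adjusted p = 0.175 over the 14 ratios computed). Pnpla2 over Abhd5 was 48.3 ± 6.65 in controls and 54.7 ± 4.53 in ANKO, and Mgll over Pnpla2 was 0.244 ± 0.0517 and 0.213 ± 0.0104 (SD, n = 3), both with overlapping groups (exact permutation p = 0.2 and 0.4). Pnpla2 over G0s2, the transcript of the ATGL inhibitor, was 3.59, 6.43 and 10.5 in controls and ran from 9.78 to 11.8 in ANKO, and control 3 lay inside the ANKO range (exact permutation p = 0.2).

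The levels of Pnpla2, Mgll, Lipe, Abhd5, Prkar2b and Ces1d were also set against that of the adipokine transcript Adipoq. Adipoq itself fell from 730, 951 and 1002 CPM to 258, 398 and 370 CPM (edgeR adjusted p = 0.0154). A ratio to Adipoq therefore rises for any gene that fell less, and the share of all genes for which it separates the groups was not computed. The ratios of Pnpla2 to Adipoq, per length, were 0.626, 0.792 and 0.908 in controls and 1.61, 1.64 and 1.30 in ANKO. Those of Mgll to Adipoq were 0.185 ± 0.00598 in controls and 0.322 ± 0.0317 in ANKO. For Pnpla2, Mgll, Lipe and Abhd5 all ANKO ratios to Adipoq lay above all control ratios (exact permutation p = 0.1 each, the smallest possible, adjusted p = 0.175). For Prkar2b (0.147 ± 0.0131 and 0.166 ± 0.0137) and Ces1d (0.337 ± 0.0618 and 0.398 ± 0.0525) the groups overlapped (exact permutation p = 0.2 and 0.4). The log2 fold change of Adipoq was -1.39 (SE 0.192), beside -1.23 for Prkar2b and -1.20 for Ces1d. Of the other adipocyte markers, Cfd (-2.60), Retn (-2.265), Acvr1c (-1.63) and Car3 (-1.59) had lower log2 fold changes than Adipoq. Those of Lep (-0.75), Cebpa (-0.62), Lpl (-0.57), Pparg (-0.51) and Slc2a4 (0.15) were higher. Ratios to these markers were not computed, and the direction seen with Adipoq need not hold for another marker.

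PKA is a tetramer of a regulatory pair and a catalytic pair, and the regulatory genes differ in tissue and in affinity for cyclic AMP. Prkar2b (ENSMUSG00000002997, chromosome 12, 31958476 to 32061296, minus strand) encodes the type II-beta regulatory subunit. Its level was 268, 350 and 428.5 CPM in controls and 122, 176 and 148 CPM in ANKO. The highest ANKO library reached less than the lowest control, and Prkar2b fell to 0.426 of control (95% interval 0.309 to 0.586), with a log2 fold change of -1.23 (SE 0.198) and an edgeR adjusted p = 0.0315. Its fold change lay at percentile 1.32 of all genes tested.

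With each library dropped in turn, the log2 fold change of Prkar2b ran from -1.39 to -1.04, while its call was mostly lost. Only the fit that dropped control 1 still called it (edgeR adjusted p = 0.0178). Dropping control 2 gave an adjusted p = 0.122, dropping control 3 gave 0.0575, and the fits short of ANKO 1, 2 or 3 gave 0.0764, 0.0597 and 0.136. With the level of the skeletal muscle markers as a covariate the log2 fold change was -1.25 and the adjusted p 0.0785.

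Prkar1a (ENSMUSG00000020612, chromosome 11, 109649405 to 109669656, plus strand) encodes the type I-alpha regulatory subunit found in most cells. It was at 245, 226 and 211.5 CPM in controls and 222, 225 and 223 CPM in ANKO. The ANKO libraries lay inside the control range. The difference had an interval from 0.856 to 1.13 of control and an edgeR adjusted p = 0.946. Its log2 fold change of -0.03 (SE 0.0861) turned to 0.03 with control 1 left out.

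Prkaca (ENSMUSG00000005469, chromosome 8, 83972993 to 83996443, plus strand) encodes the main catalytic subunit, C-alpha. It was at 126, 117 and 164 CPM in controls and 94.2, 122.5 and 107 CPM in ANKO, and ANKO 2 reached into the control range. The log2 fold change was -0.33 (SE 0.149, interval 0.626 to 1.01 of control, edgeR adjusted p = 0.412). The other catalytic gene, Prkacb, was at 97.0 ± 7.76 and 94.7 ± 0.895 CPM (SD, n = 3).

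The stretches of DNA just before the start sites of these 3 PKA genes are shown because the regulatory pair, Prkar2b and Prkar1a, shares a function and differed in its values. Windows of 250 bases before an annotated start, from RefSeq on GRCm38.p6, were found for 8 of the 10 members (18 windows). For each PKA gene the window with the most motif matches (for Prkar1a that of an alternative start) is printed 5′ to 3′ on the gene's strand, ending where an annotated exon begins. Capitals mark matches, on either strand, to the cyclic AMP response element TGACGTCA, its shorter core TGACG, the E-box CACGTG and the CCAAT box. The core is contained in the full element on both strands. Prkar2b is chr12:32061297-32061527 (minus strand), Prkar1a is chr11:109650699-109650920 (plus strand) and Prkaca is chr8:83972728-83972977 (plus strand).
Prkar2b: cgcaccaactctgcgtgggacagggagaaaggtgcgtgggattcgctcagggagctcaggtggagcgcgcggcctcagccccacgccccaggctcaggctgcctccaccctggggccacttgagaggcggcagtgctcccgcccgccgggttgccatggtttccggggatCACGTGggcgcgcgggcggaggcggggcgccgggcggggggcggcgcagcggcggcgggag
Prkar1a: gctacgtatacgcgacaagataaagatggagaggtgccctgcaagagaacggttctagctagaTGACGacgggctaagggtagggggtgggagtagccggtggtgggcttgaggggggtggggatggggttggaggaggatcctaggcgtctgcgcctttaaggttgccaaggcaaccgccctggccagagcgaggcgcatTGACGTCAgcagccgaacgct
Prkaca: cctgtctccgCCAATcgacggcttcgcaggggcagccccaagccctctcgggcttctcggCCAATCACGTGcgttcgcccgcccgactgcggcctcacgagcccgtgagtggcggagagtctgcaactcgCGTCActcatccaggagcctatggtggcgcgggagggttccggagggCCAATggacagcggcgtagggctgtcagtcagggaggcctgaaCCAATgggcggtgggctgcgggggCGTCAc

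The Prkar1a window held the full element TGACGTCA starting 49 bases before the start, as did 1.55% of 32851 windows of the same length over all genes, and none of the other 17 windows of the members did. Prkar1a had 6 windows to pick from, against 2 each for Prkar2b and Prkaca. The 1.55% is a share per window and makes no allowance for that choice. The Prkar2b stretch held an E-box CACGTG 80 bases before the start, found in 6.02% of windows, and no TGACG, found in 17.8% of windows. It was 75.8% G and C with 27 CpG dinucleotides. The Prkaca stretch held the CCAAT box 4 times, a motif that 33.8% of windows contain, and an E-box. Over the members, 5 of 18 windows held CACGTG, 5 held TGACG, 3 held CCAAT, 1 held the nuclear receptor core AGGTCA (14.0% of all windows) and none held TATAAA (12.4%). The Prkar1a windows that begin at 109650612 and 109650699 overlap and share a TGACG. By gene, 5 members held CACGTG, 3 held TGACG and 3 held CCAAT. These are matches of letters in a short window and describe sequence alone, and their part in the expression values was not tested.

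The make-up of the regulatory family was described as shares within each library, in which a fall of Prkar2b raises the shares of the others. Per length, Prkar2b made up 53.2%, 61.8% and 67.2% of the 4 regulatory transcripts in controls and 35.2%, 44.1% and 40.5% in ANKO. Prkar1a made up 41.0%, 33.8% and 28.1% in controls and 54.1%, 47.8% and 51.5% in ANKO, and every control had more Prkar2b than Prkar1a while every ANKO library had less. Prkar2b over Prkar1a was 1.30, 1.83 and 2.40 in controls and 0.650, 0.921 and 0.786 in ANKO (exact permutation p = 0.1, the smallest possible, adjusted p = 0.175). Prkar2a, the type II-alpha subunit, made up 4.36% ± 0.652 in controls and 7.55% ± 1.25 in ANKO (SD, n = 3). Its own level differed by 0.17 on the log2 scale (edgeR adjusted p = 0.639). Of the 4 genes only Prkar2b was called. In whole tissue, a different mix of cells and a change within adipocytes cannot be told apart in these shares.

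Catalytic transcripts, Prkaca and Prkacb together, were set against the 4 regulatory transcripts per length. The ratio was 0.449, 0.368 and 0.445 in controls and 0.513, 0.550 and 0.537 in ANKO. All ANKO ratios lay above all control ratios (exact permutation p = 0.1, the smallest possible, adjusted p = 0.175). The summed regulatory level was 156 ± 18.2 CPM per kb in controls and 101 ± 7.20 CPM per kb in ANKO. The summed catalytic level was 65.6 ± 10.7 and 54.1 ± 5.73 CPM per kb (SD, n = 3). Prkar2b is part of the regulatory sum, and the mix of cells cannot be told apart from changes within adipocytes here either.

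**Figure D3:**
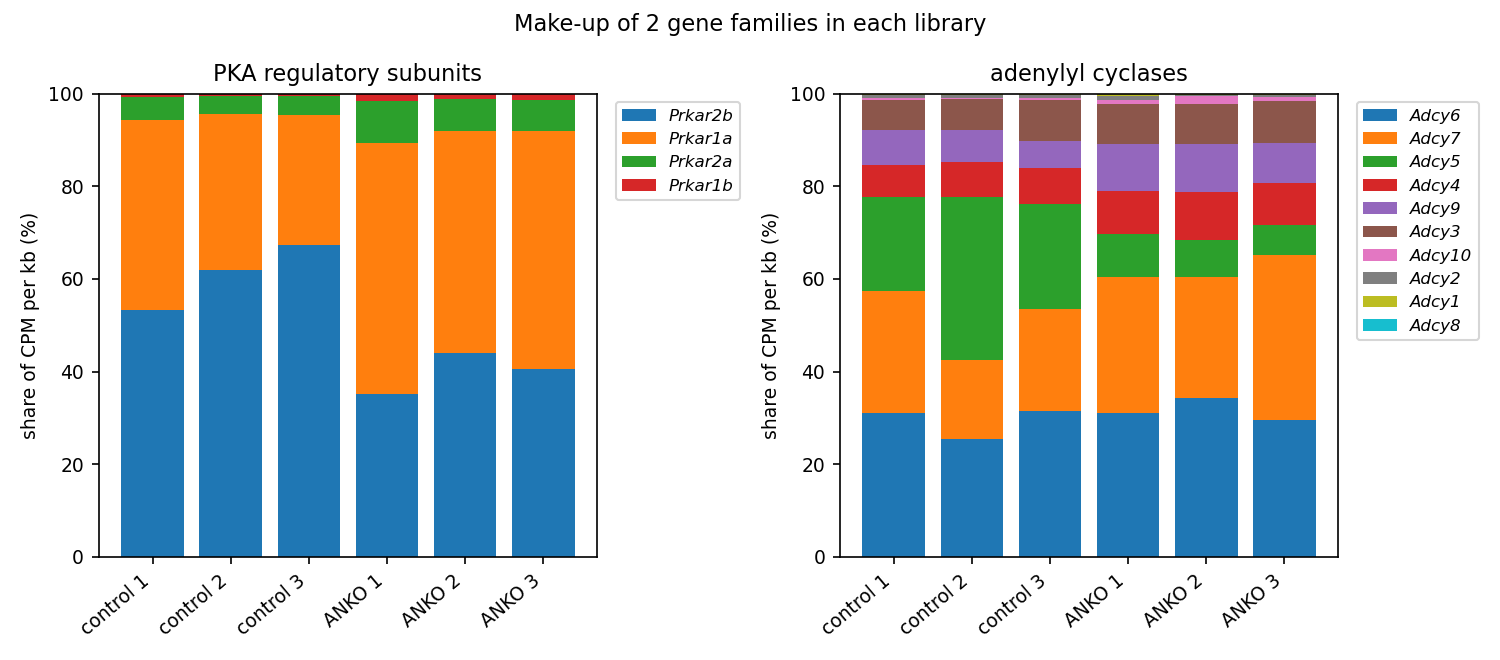
Share (%, vertical axis) of each gene in the summed CPM per kb of the 4 PKA regulatory subunits (left) and of the 10 adenylyl cyclases (right) in every library. Prkar2b takes 53.2% to 67.2% of the regulatory transcripts in controls and 35.2% to 44.1% in ANKO, and the green band of Adcy5 narrows from 20.3% to 35.2% in controls to 6.55% to 9.21% in ANKO.

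The adenylyl cyclases make cyclic AMP, and Adcy3 and Adcy6 are membrane forms expressed in adipocytes. Adcy6 (ENSMUSG00000022994, chromosome 15, 98589973 to 98610076, minus strand) was at 199, 200.5 and 236 CPM in controls and at 163, 178 and 153 CPM in ANKO. All ANKO libraries lay below all controls, by a smaller margin than for Lipe or Ces1d, at 0.779 of control (interval 0.661 to 0.917), a log2 fold change of -0.36 (SE 0.102) that was not called (edgeR adjusted p = 0.164, DESeq2 adjusted p = 0.0739).

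Adcy3 (ENSMUSG00000020654, chromosome 12, 4133103 to 4213525, plus strand) was at 37.7, 48.6 and 60.8 CPM in controls and at 42.2, 41.7 and 43.3 CPM in ANKO. The ANKO values lay inside the control range, which was wide (SD 23.6% of the mean, against 1.94% in ANKO). The log2 fold change was -0.21 (SE 0.160, interval 0.670 to 1.12 of control, edgeR adjusted p = 0.673). Cenpo, a protein-coding gene on the opposite strand with a mean of 322 counts per library, shares 22.1% of the exon bases of Adcy3, the highest such share among the members. Without the strand setting, reads from that stretch cannot be assigned to either gene.

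Among the other cyclases, Adcy5 (chromosome 16, 35154877 to 35305738) was the 1 of 7 tested that edgeR called, and it fell. It was at 139, 293 and 180 CPM in controls and 51.4, 44.6 and 36.1 CPM in ANKO (log2 fold change -2.21, SE 0.307, edgeR adjusted p = 0.0328). Its share of cyclase transcripts per length went from 26.1% ± 8.01 to 7.95% ± 1.33 (SD, n = 3), while those of Adcy6 (29.3% ± 3.31 and 31.6% ± 2.41) and Adcy3 (7.30% ± 1.33 and 8.81% ± 0.207) overlapped between groups. The summed cyclase level was 107 ± 10.9 CPM per kb in controls and 77.0 ± 0.570 CPM per kb in ANKO. DESeq2 also called Adcy10, the soluble cyclase, higher. It was at 4.60, 2.07 and 3.14 CPM in controls and 4.83, 10.9 and 6.55 CPM in ANKO (log2 fold change 1.18, SE 0.381, edgeR adjusted p = 0.225). Adcy5 was no longer called when control 3 or any ANKO library was dropped (highest edgeR adjusted p = 0.156), with no low-count filter, with the replicate block or with the muscle covariate.

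Within each group most members were high or low in the same mice. Control 3 was the highest control for 9 of the 10 genes and control 1 the lowest for 8, and ANKO 2 was the highest ANKO library for 9 and ANKO 1 the lowest for 7. The summed adipocyte markers were lowest in control 1 and highest in control 3, and lowest in ANKO 1 and highest in ANKO 2, as for most members, and their part in these differences was not tested. The muscle marker sum was highest in control 3 and ANKO 1. Over the 6 libraries the 36 pairs among the 9 genes other than Prkar1a had Pearson correlations of log2 CPM from 0.598 (Adcy3 and Mgll) to 0.978 (Prkar2b and Ces1d). The 9 pairs with Prkar1a ran from -0.809 to -0.088. These points share the library and the group difference, so the values describe the 6 libraries alone.

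**Figure D4:**
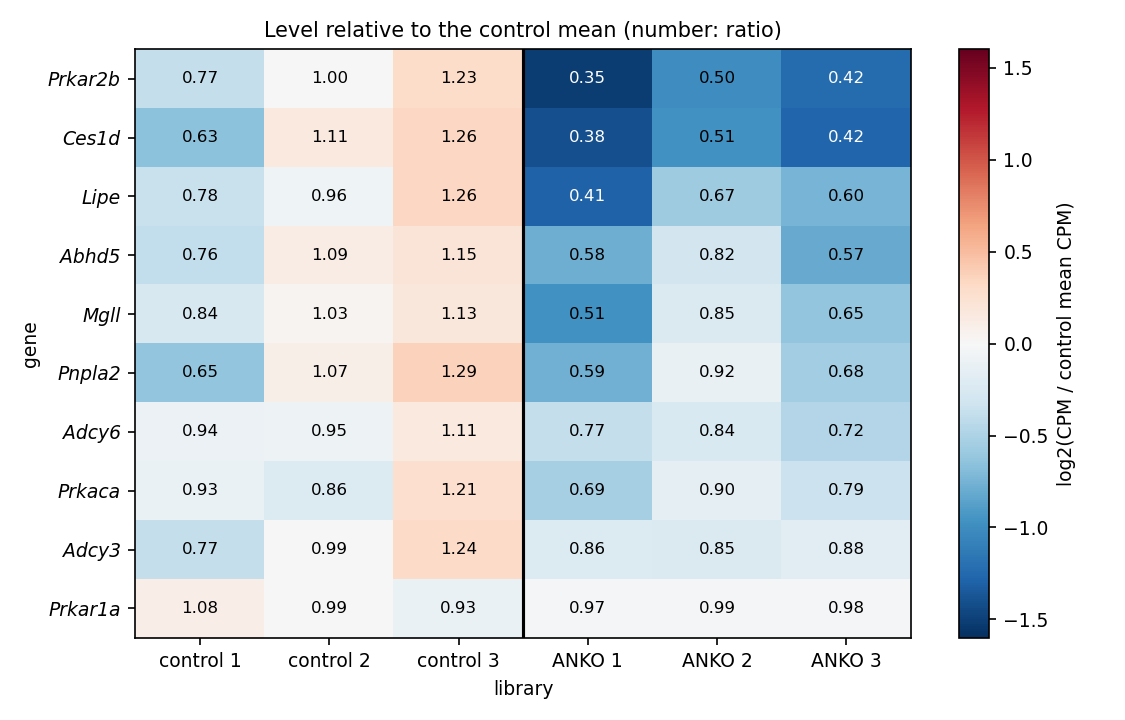
Level of each gene (rows, ordered by fold change) in each library (columns) divided by its mean over the controls, printed as the ratio and coloured on a log2 scale, with red above and blue below the control mean. Prkar2b runs from 0.769 to 1.23 in controls and from 0.349 to 0.503 in ANKO, and Prkar1a stays between 0.930 and 1.08 in every library.

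For the 3 members with the smallest p, the genes of most alike pattern over the 6 libraries were sought among 10543 others with a mean level of 10 CPM or more. The closest to Prkar2b were Dram1, Rbm33 and Acsl1 (Pearson r 0.998 each), and Dram1 and Acsl1 were also called lower in ANKO (log2 fold changes -0.71 and -1.34, edgeR adjusted p = 0.0294 and 0.0425). The closest to Ces1d were the insulin receptor gene Insr, the acyl-CoA dehydrogenase gene Acadl and the peroxisomal membrane gene Pxmp4 (r 0.997, 0.997 and 0.995), of which Pxmp4 was called lower (log2 fold change -0.78, edgeR adjusted p = 0.0476). The closest to Adcy6 were Gstk1, Cept1 and Rapgef1 (r 0.996, 0.995 and 0.993). These are the highest of many values over 6 points and describe these libraries alone.

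The rest of the pathway was read from 7 lists with 82 tested genes, of which 6 fell and 2 rose in edgeR. Over all genes tested, 1.1% were called lower and 0.488% higher. Their median log2 fold change was 0.01, with 40 negative and 42 positive. DESeq2 called 13 lower and 4 higher, where it called 2.58% and 2.01% of all genes. With the muscle covariate edgeR called 3 lower (0.586% of all genes) and 1 higher. With 1 library left out, 0 to 7 were lower and 0 to 2 higher, and none was called in either direction without ANKO 3. Of the 8 calls, 5 were in the list of lipid droplet regulators and other lipid hydrolases. The receptors, the cyclases and the phosphodiesterases had 1 each.

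Among the lipid droplet regulators and other lipid hydrolases, 3 of 16 tested genes fell and 2 rose in edgeR, and the list's median was -0.34 on the log2 scale. The ATGL inhibitor gene G0s2 fell from 80.2, 73.9 and 54.5 CPM to 26.8, 34.7 and 27.6 CPM (log2 fold change -1.23, edgeR adjusted p = 0.0147). The coat gene Plin1 fell from 879, 978 and 1227 CPM to 345, 527 and 430 CPM (log2 fold change -1.24, edgeR adjusted p = 0.0212), and the third that fell was Ces1f. DESeq2 called 6 of the 16 lower, these 3 with Cav1, Cidec and Plin4 (edgeR adjusted p = 0.0871, 0.300 and 0.0907), and the same 2 higher. The coat gene Plin2, found on droplets of most cells, rose from 161, 141 and 176 CPM to 411, 883 and 631 CPM (log2 fold change 2.01, edgeR adjusted p = 0.0234). Lipa, the acid lipase of lysosomes, rose from 48.5, 52.8 and 46.6 CPM to 84.0, 130 and 134 CPM (log2 fold change 1.23, edgeR adjusted p = 0.0205).

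These calls were not kept in every fit with 1 library left out, and such fits also have fewer residual degrees of freedom. The log2 fold changes in those fits ran from -1.363 to -1.111 for G0s2 and from -1.408 to -1.085 for Plin1. For Plin2 they ran from 1.71 to 2.266 and for Lipa from 1.117 to 1.44. G0s2 lost its call when control 2, ANKO 1 or ANKO 3 was dropped (highest edgeR adjusted p = 0.0845). Plin1 lost it on dropping control 2 or ANKO 3 (highest edgeR adjusted p = 0.110) and with the muscle covariate. Plin2 lost it on dropping ANKO 3 or any control (highest edgeR adjusted p = 0.108), with no low-count filter, with the replicate block and with the muscle covariate. Lipa lost it on dropping any library but ANKO 1 (highest edgeR adjusted p = 0.0845). Lipa is also expressed in macrophages, whose 10 markers, all detected, summed to 0.0592% to 0.0648% of counts in controls and 0.0805% to 0.104% in ANKO. All 10 had a positive log2 fold change and 3 were called higher in edgeR, Gpnmb (9.62 times the control level), Trem2 (7.22 times) and Adgre1 (2.0 times), while the abundant Lyz2 and Csf1r stood at 1.26 and 1.25 times control and were not called. The part of macrophage RNA in the values of Lipa and Plin2 was not tested.

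Among 13 receptors and G proteins that act on adenylyl cyclase, 1 was called, and it fell. The list had a median log2 fold change of 0.01. Hcar1, the lactate receptor of adipocytes that lowers cyclic AMP, fell from 56.5, 72.6 and 123 CPM to 10.9, 10.7 and 12.4 CPM (log2 fold change -2.89, SE 0.306, edgeR adjusted p = 0.0133). Hcar1 lost its call when any ANKO library was dropped (highest edgeR adjusted p = 0.0918). DESeq2 called 4 of the 13 lower, Hcar1, Adrb3, Hcar2 and Gnai1, whose edgeR adjusted p beside Hcar1 were 0.0526, 0.0723 and 0.181. The other 3 were chosen for naming after their values were seen.

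Among 15 phosphodiesterases that act on cyclic AMP, the 1 call in edgeR was a fall, and the median was -0.14 on the log2 scale. Pde3b, the enzyme through which insulin lowers cyclic AMP in fat, fell from 271, 356 and 401 CPM to 135.5, 172 and 158.5 CPM (log2 fold change -1.14, SE 0.159, edgeR adjusted p = 0.0154). It was not called when control 2, ANKO 1 or ANKO 3 was dropped (highest edgeR adjusted p = 0.0825). DESeq2 called Pde3b lower and also Pde11a higher, which was at 1.97, 2.12 and 2.06 CPM in controls and 4.66, 3.51 and 4.93 CPM in ANKO (log2 fold change 1.09, SE 0.230, edgeR adjusted p = 0.0700).

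None of 6 other PKA subunit and inhibitor genes was called in edgeR, DESeq2 or limma-voom, and 1 had an unadjusted p under 0.05. This was Prkar1b, at 3.72 ± 0.326 and 5.21 ± 0.775 CPM in control and ANKO (SD, n = 3; edgeR adjusted p = 0.364). None of 11 A-kinase anchoring proteins, which tether PKA in the cell, was called in edgeR. The 1 with an unadjusted p under 0.05 was Akap7, at 32.8, 36.9 and 48.6 CPM in controls and 18.2, 24.1 and 24.9 CPM in ANKO (log2 fold change -0.82, edgeR adjusted p = 0.0785, DESeq2 adjusted p = 0.0029). It was called with no low-count filter and with the replicate number as a block.

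Genes downstream of PKA in the nucleus showed no call either. None of 14 CREB family, coactivator and cyclic AMP-responsive genes passed in edgeR, DESeq2 or limma-voom, 2 had an unadjusted p under 0.05, and the median log2 fold change was 0.09. The smallest p was that of the coactivator gene Ppargc1a, at 10.8, 11.6 and 17.6 CPM in controls and 7.39, 10.7 and 9.15 CPM in ANKO (log2 fold change -0.55, edgeR adjusted p = 0.357).

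**Figure D5:**
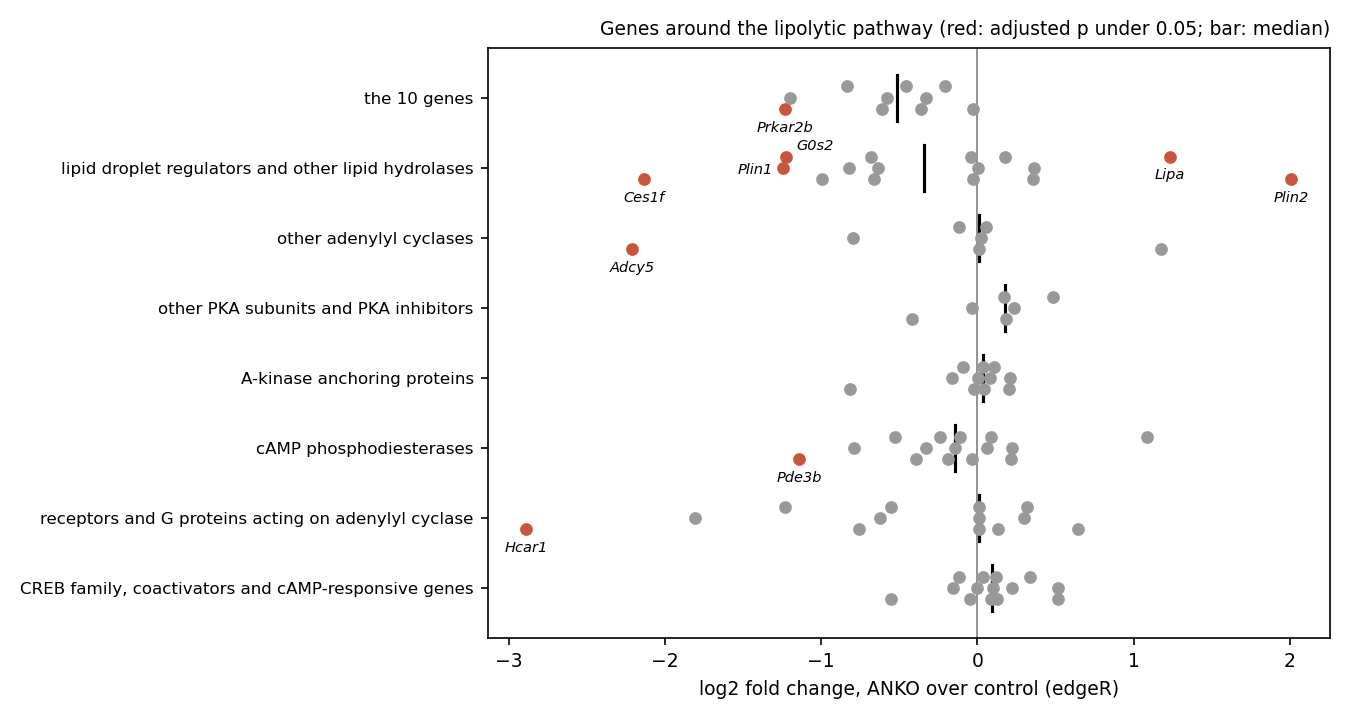
Log2 fold change of ANKO over control (horizontal axis, edgeR) for the 10 genes and for every tested gene of the 7 pathway lists (rows), with red points for an adjusted p under 0.05 and a black bar at the list's median. The medians lie at -0.52 for the 10 genes, -0.34 for the droplet regulators and other lipid hydrolases and between -0.14 and 0.18 for the other lists.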

How the data were processed

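RNA was extracted from frozen tissue with Qiazol and RNeasy columns and the Ribo-Zero Gold kit was then used, per the labels' protocols. STAR 2.0.4b, Subread, featureCounts 1.45 and the build GRCm38 are named in the submitters' processing notes. Which annotation and which strand option the counting used is not given in the sources used here. Deposited by the authors were raw read counts per gene symbol, 1 column per mouse. Of 40757 lines, 329 exact repeats were dropped. None concerned a member. Positions, exon lengths and overlaps are from GENCODE M21 (GRCm38).

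ANKO and control (3 libraries each, grouped by sample title) were compared with edgeR 4.0.16 in R 4.3.3, using filterByExpr (minimum count 10, minimum total 15), TMM scaling and robust quasi-likelihood F tests, fitted and Benjamini-Hochberg adjusted over all 19272 genes, with a threshold of 0.05. The standard error is the log2 fold change over the square root of F. Single-library ratios were compared by exact permutation. The steps were tested on simulated data drawn with dispersions estimated by edgeR, a setting that may favour edgeR. DESeq2 called more unchanged genes there than its threshold allows. Calls by DESeq2 alone carry that limit. Alternatives included DESeq2 1.42.0 and limma-voom (limma 3.58.1). Nothing in the labels says how the mice were sampled, so p-values set the group difference against the spread between these libraries only.

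Named were the members, Nampt, per pathway list the called genes (at most the 4 with the smallest p, or else the 1 with the smallest p) and the genes most alike to 3 members (correlation of log2(CPM + 0.5)). Ces1f, Adipoq and the other adipocyte markers, Prkacb, Prkar2a, the macrophage markers and the genes called by DESeq2 alone were named after their values were seen. The members and lists were chosen with earlier results of these data known. Pde2a of the phosphodiesterase list matched no feature name used here.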

Additional observations from a re-analysis of the deposited data

How the results depend on the processing

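Of 160 values (10 members under 16 alternatives each), 150 kept their direction and their side of the threshold, 6 lost the call of Prkar2b, 3 gained a call and 1 turned its sign, that of Prkar1a, whose log2 fold change ran from -0.064 to 0.03 when 1 library was left out (0.03 without control 1). The gained calls were Ces1d and Lipe with DESeq2 and Ces1d without control 1. The members called lower numbered 1 in the fit reported, 3 with DESeq2, 0 with the muscle marker covariate and 0 to 2 when 1 library was left out (2 without control 1, 0 without any other library). None was called higher under any alternative run. Over all genes, 212 were lower and 94 higher. With DESeq2 these became 498 and 388, and with the muscle marker covariate, which takes a residual degree of freedom, 113 and 49. The higher genes were 167 with no low-count filter and 62 with the replicate number as a block. Leaving out 1 library gave 55 to 221 lower and 20 to 107 higher genes. Libraries with the same replicate number did not deviate together (correlations of deviations 0.0746, -0.0333 and -0.0435 for numbers 1, 2 and 3), so the numbers are not taken to pair mice. With the replicate block the log2 fold change of Prkar2b was -1.22 (edgeR adjusted p = 0.0220), and 1 member was called. Another scaling moved the median of all genes by under 0.1 on the log2 scale. The share of Prkaca among catalytic transcripts differed by -3.06 percentage points per length and by -4.99 in raw counts. Of the 82 pathway genes, 6 were lower and 2 higher; DESeq2 gave 13 and 4, the muscle covariate 3 and 1, no low-count filter 6 and 1, the replicate block 7 and 1, and leaving out 1 library 0 to 7 and 0 to 2.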
